A study of Mus musculus with 12 samples.

Results

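The K17KO p53 list holds the regions at which chromatin immunoprecipitation with an antibody against p53, followed by sequencing (ChIP-seq), gave a peak in back skin of K17KO mice. All 1101 peaks of that list were taken, out of 9474 peaks in the 3 lists of the series. The other lists are a p53 list that names no genotype and an H3K4me3 list, for the histone modification found at the starts of active genes. Skin came from mice aged 8 to 10 weeks, and the series is described as back skin in the growth phase of the hair cycle. K17KO is used as the labels write it, since they do not spell it out. The K17KO p53 ChIP has 2 samples at T0 and 2 at 6 h, and the wild-type groups are p53 and H3K4me3 with 2 samples at T0 and 2 at 6 h for each antibody, 12 samples in all. The labels give ionizing radiation as the treatment of all 12 samples, T0 included, and the protocol gives 5 Gy. They name no unirradiated group and do not say whether the samples of a group came from separate mice.

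The list names no time point, library, replicate or control. It can therefore pool T0 and 6 h, come from 1 of them, or set them against each other, and these cannot be told apart. No value in it has a replicate error. Each peak was treated as a single reading, and no test between conditions was possible.

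p53 is a transcription factor that accumulates after DNA damage and binds DNA as a tetramer, through a pair of short, nearly palindromic motifs. Its well-known targets act in cell cycle arrest, cell death and DNA repair, among them Cdkn1a (p21), Mdm2 (which marks p53 for degradation) and Bax (which permeabilizes the outer mitochondrial membrane). In skin, p53 is known for its part in the response of hair follicle and epidermal cells to radiation.

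The DNA at gene starts with a peak is shown first. RefSeq promoter windows of GRCm38.p6, which run from 250 bp before a start to 50 bp after it, overlapped a peak in 117 cases, at 107 genes and 95 peaks. The 250 bases before the start are shown for Rps27l, a p53 target gene for a ribosomal protein S27-like protein, and for the 4 named protein-coding genes of highest fold whose upstream bases lie in a peak. Capitals mark p53 half-sites in Rps27l, CCGGAAG in Tnpo3 and GGGCGG in Snx25 and Tmem9b, on either strand. The Rps27l half-sites lie inside the peak, whereas the marked matches in Tnpo3, Snx25 and Tmem9b lie outside theirs. Bicd1 has none of the motifs searched.
Rps27l, chr9:66946163-66946412, plus strand: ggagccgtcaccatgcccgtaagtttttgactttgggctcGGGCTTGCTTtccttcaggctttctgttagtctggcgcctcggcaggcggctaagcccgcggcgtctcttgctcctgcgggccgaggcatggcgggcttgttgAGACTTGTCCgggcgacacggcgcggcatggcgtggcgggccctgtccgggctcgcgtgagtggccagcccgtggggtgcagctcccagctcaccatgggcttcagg
Bicd1, chr6:149408734-149408983, plus strand: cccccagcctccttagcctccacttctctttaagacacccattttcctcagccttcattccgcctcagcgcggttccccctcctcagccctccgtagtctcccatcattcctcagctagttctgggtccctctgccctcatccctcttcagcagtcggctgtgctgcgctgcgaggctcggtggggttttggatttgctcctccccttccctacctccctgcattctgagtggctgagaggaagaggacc
Tnpo3, chr6:29609850-29610099, minus strand: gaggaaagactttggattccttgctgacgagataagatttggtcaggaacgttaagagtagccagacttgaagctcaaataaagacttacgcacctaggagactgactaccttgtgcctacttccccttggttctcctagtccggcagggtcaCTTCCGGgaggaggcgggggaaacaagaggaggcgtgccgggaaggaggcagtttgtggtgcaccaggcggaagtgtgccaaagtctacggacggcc
Snx25, chr8:46151764-46152013, minus strand: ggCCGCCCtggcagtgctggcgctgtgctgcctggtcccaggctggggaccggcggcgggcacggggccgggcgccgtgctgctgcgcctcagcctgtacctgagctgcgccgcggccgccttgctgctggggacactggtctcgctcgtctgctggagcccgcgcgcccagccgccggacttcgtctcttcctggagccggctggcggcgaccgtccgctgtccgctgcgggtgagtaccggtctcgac
Tmem9b, chr7:109752264-109752513, minus strand: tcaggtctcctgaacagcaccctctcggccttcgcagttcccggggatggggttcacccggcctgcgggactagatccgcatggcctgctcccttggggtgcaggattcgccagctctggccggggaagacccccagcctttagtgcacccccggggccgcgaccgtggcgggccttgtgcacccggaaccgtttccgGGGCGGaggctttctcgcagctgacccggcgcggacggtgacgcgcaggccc
Most of these 5 promoters are rich in G and C. The G and C share of the printed bases was 67.2% for Rps27l, 59.6% for Bicd1, 54.4% for Tnpo3, 75.6% for Snx25 and 70.4% for Tmem9b. The peak covered all 250 printed bases of Rps27l, 180 of Bicd1, 62 of Tnpo3, 129 of Snx25 and 146 of Tmem9b.

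A p53 half-site is the 10-base motif that a p53 dimer binds, and a full site is a pair of them up to 13 bases apart. Half-sites were found in 6 of the 117 windows, all 6 of them among the 100 windows of protein-coding genes (6%), against 7.37% of all 21263 protein-coding windows. Only 27 of the 100 hold a peak summit, and 2 of these 27 had a half-site (7.41%). For the rest, the window covers DNA beside the summit. A full site was in 0 of the 117 windows, against 0.0731% of all 32851 windows. Among the 100 protein-coding windows it was in 0, against 0.0470% of all protein-coding windows. At shares this low, 0 is the likely count in so few windows, and no conclusion is drawn from it. All 7 half-sites of those 6 windows are shown in capitals with 10 bases on each side, because they are the letters nearest to a p53 motif at these starts.
Rps27l, chr9:66946193-66946222, plus strand: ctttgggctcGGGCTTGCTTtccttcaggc
Rps27l, chr9:66946296-66946325, plus strand: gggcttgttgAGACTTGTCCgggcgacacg
Rec114, chr9:58741527-58741556, minus strand: gacctttgacAGGCATGTCTgaagcgggaa
Stx11, chr10:12964452-12964481, minus strand: gaagaagaaaGAGCAAGTTCccgggtggtc
Banf1, chr19:5366888-5366917, minus strand: ccatcaagtgAGGCAAGCCTaagttccgag
Rps19, chr7:24884803-24884832, plus strand: cggcaggcccGGACATGCCTgatcgccgca
Plcl1, chr1:55405879-55405908, plus strand: cgggctgtcaAAACAAGTCTtccctccctg
The Rps27l sites lie 210 to 201 and 107 to 98 bp before the start, too far apart to count as a full site. The Rps19 site, 100 to 91 bp before a start of this ribosomal protein gene, lies in a 4.91-fold peak with 18 fragments over a background of 2.87. In all, 5 of the 7 half-sites lay inside their peak, and those of Stx11 and Banf1 did not. Of the 9 peaks that the K17KO list shares with the other p53 list, 2 overlap a promoter window, those at Rps27l and Rps19, and both windows hold a half-site. A match is a description of letters and not a binding site.

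The other motifs were searched on both strands and counted anywhere in the window, inside the peak or beside it. Among the 100 protein-coding windows with a peak, GGGCGG, the GC box, was in 72 (72%), against 46.2% of all 21263 protein-coding windows. CACGTG, the E-box, was in 17 (17%) against 7.84%. CCGGAAG, an ETS-type motif, was in 18 (18%) against 11.6%, and AAGATGGC, a YY1-type motif, in 5 (5%) against 3.05%. CCAAT was in 40 (40%) against 38.2%, and TGACGTCA, the cyclic AMP response element, in 2 (2%) against 2.23%. TATAAA, the TATA box, was in 2 (2%) against 12.6%. NRF1 and ZNF143 sites were in 0 of these windows and in 1.33% and 0.423% of all protein-coding windows. The median G and C share was 65% against 56.3%, and the median number of CpG pairs was 26 against 13. Base composition and motif counts move together, and the part of one in the other was not tested. Matches of different motifs overlapped in 0 of the 117 windows and matches of the same motif in 14, and a window counts once.

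Each peak carries the authors' fold, which the caller computes from the fragments over the peak summit and a background, each with 1 added. Solving the deposited fold and p-value together returned both numbers for all 1101 peaks, which gives the depth behind each value. The median peak rested on 11 fragments, with a range of 6 to 576, over a median background of 1.39 fragments (0.945 to 445). The median fold was 4.60, with a range of 1.22 to 8.52. Because fragments are whole and few, the folds fall in steps, and 36 peaks share a fold of 5.11. The deposited q-value was at most 0.01 for 804 peaks (73.0%). Intervals given here cover counting only, at 95%, exact binomial for shares and exact Poisson for densities.

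Genes were first asked for by position. A peak was placed at a gene end when its midpoint lay within 1 kb of either end of a RefSeq gene, and 309 peaks did (28.1%, interval 25.4 to 30.8). Such windows make up 6.01% of the annotated span. A further 466 peaks lay deeper inside a gene (42.3%, 39.4 to 45.3), close to the 42.1% of the span that is there. Outside genes lay 312 peaks (28.3%, 25.7 to 31.1), where 51.9% of the span lies, and 14 were on unplaced sequence. The median fold hardly differed, at 4.60 at gene ends, 4.60 inside and 4.64 outside, and the median widths were 339, 339 and 328 bp. H3K4me3 peaks overlapped 52 of the 309 gene-end peaks (16.8%), 15 of the 466 inside (3.22%) and 0 of the 312 outside. Over the whole list they overlapped 67 peaks (6.09%), and the H3K4me3 list holds 5464 peaks. The share of all gene ends that overlap an H3K4me3 peak was not computed.

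Many summits lay just past a gene start. On the 20 chromosomes of the promoter table, 215 of 1050 summits were within 1 kb of a RefSeq start (20.5%, interval 18.1 to 23.0), where 2.12% of the span lies. Downstream of the start lay 170 summits, at a median of 296.5 bp, and upstream 44, at a median of -258.5 bp. Downstream summits were thus 79.4% of the 214 not at the start itself (interval 73.4 to 84.6). Within 250 bp the counts were 65 downstream and 21 upstream. Among gene-end peaks, H3K4me3 overlapped 40 of the 177 with a start within 1 kb of the summit (22.6%) and 12 of the 121 without one (9.92%).

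**Figure D1:**
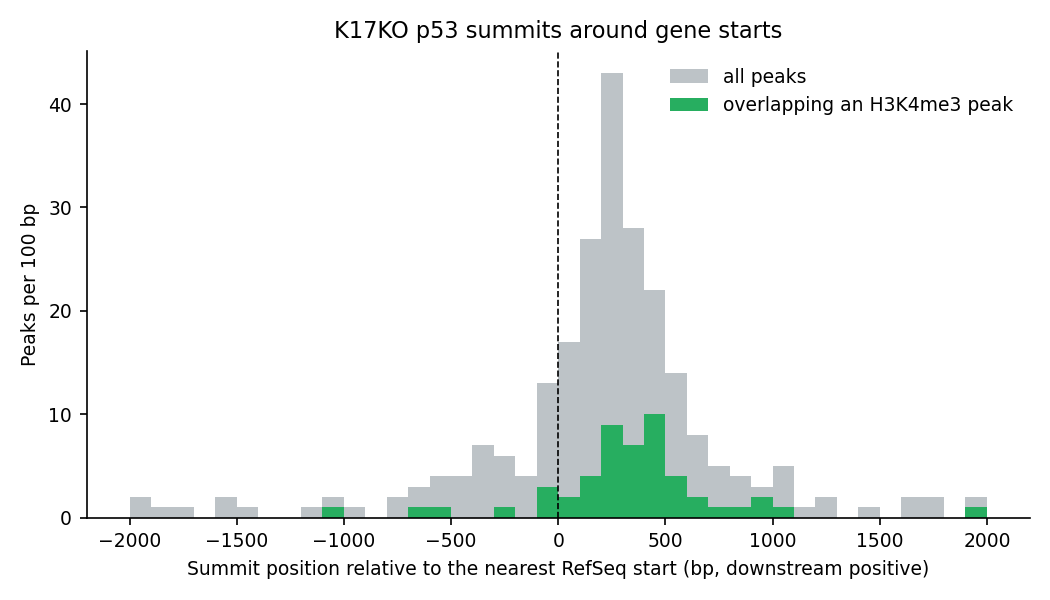
Number of K17KO p53 peak summits per 100 bp of distance from the nearest RefSeq start, with positive distances downstream of the start. Grey bars are all peaks and green bars those overlapping an H3K4me3 peak. Summits gather past the start, 170 downstream and 44 upstream within 1 kb.

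Among protein-coding genes, 272 of 21887 had a peak within 1 kb of an end (1.24%). The highest were Hsp90b1, the chaperone of the endoplasmic reticulum, and Bicd1, a dynein adaptor, each 7.67-fold with 14 fragments over 0.956. The Hsp90b1 peak, on chromosome 10 from 86704882 to 86705193, also lay within 1 kb of an end of Ttc41. Dnajc10 (a disulfide reductase of the endoplasmic reticulum), Tnpo3 (a nuclear import receptor) and Snx25 (a sorting nexin) followed at 7.20-fold with 13 fragments each. Tmem9b had 7.16-fold. Prep, a prolyl peptidase, had 6.69-fold with 15 fragments over 1.39, and Gpbp1, a promoter-binding protein, 6.68-fold.

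The next genes in order of fold had varied roles. Bard1, the partner of Brca1, Cep350 and Cdk5rap2, both centrosomal, each had 6.65-fold with 12 fragments. Smarca4, the ATPase of the SWI/SNF remodeller, had 6.59-fold, Mfsd4b4 6.46 and Ylpm1 6.37. Adrm1, a ubiquitin receptor of the proteasome, and Pknox2, a homeodomain factor, had 6.18-fold with 17 fragments each, the most fragments among these 20 peaks. Mgat2 (an N-glycan branching enzyme), Plcxd2, Gtf3c2 (a subunit of TFIIIC) and Ppp1cb (a phosphatase catalytic subunit) closed the group at 6.17-fold. The Mgat2 peak also reached Rpl36al. These 20 peaks had 11 to 17 fragments, so steps in this order can rest on 1 fragment. Those at Hsp90b1, Bicd1, Prep and Gpbp1 overlapped an H3K4me3 peak.

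The share of p53 target genes with a peak was close to the background, with a wide interval. Of 54 measured targets, 1 had a peak at an end (1.85%, interval 0.0469 to 9.89), against 1.24% of all protein-coding genes. It was Bax, whose peak on chromosome 7 from 45466485 to 45466775 was 4.66-fold with 17 fragments over 2.87, 273 bp from an end and 322 bp downstream of a start. Rps27l had a 6.53-fold peak with 18 fragments over 1.91, on chromosome 9 from 66946091 to 66946536. It lay 1689 bp from the nearest end, inside the gene, with its summit 89 bp before an internal RefSeq start, and so fell outside the 1 kb rule. The nearest peak to Cdkn1a was 59.3 kb away, to Mdm2 136 kb, to Trp53 itself 187 kb and to Krt17 1182 kb. The name p53 is used for the list as its label. The half-site search covered promoter windows at 95 of the 1101 peaks, and the sequence of the other peaks was not analysed here.

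Of the 9 peaks that both p53 lists hold, 7 had a low background, and 3 of these were among the peaks with most fragments. Of the 1013 peaks with a background of at most 3 fragments, 7 had 18 fragments or more. Among those 7, 3 are also in the other p53 list, against 7 of all 1013. These 3 were the 26-fragment peak inside the lncRNA gene Gm13067 on chromosome 4 (6.98-fold) and those at Rps27l and Rps19. The remaining 4 lay 74.1 kb from Adamts1 (24 fragments), on chromosome X (22), inside Col7a1 (19), the type VII collagen gene, and 7.11 kb from Herc3 (18). This limit was chosen after the values were seen. The other shared peaks were at Bax, Cdc34 (4.58-fold) and Ndnf (4.12-fold), 6.04 kb from Gm36301 (4.41-fold), and at 2 sites of high background with 66 and 65 fragments. Of the 9, 4 overlapped an H3K4me3 peak.

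**Figure D2:**
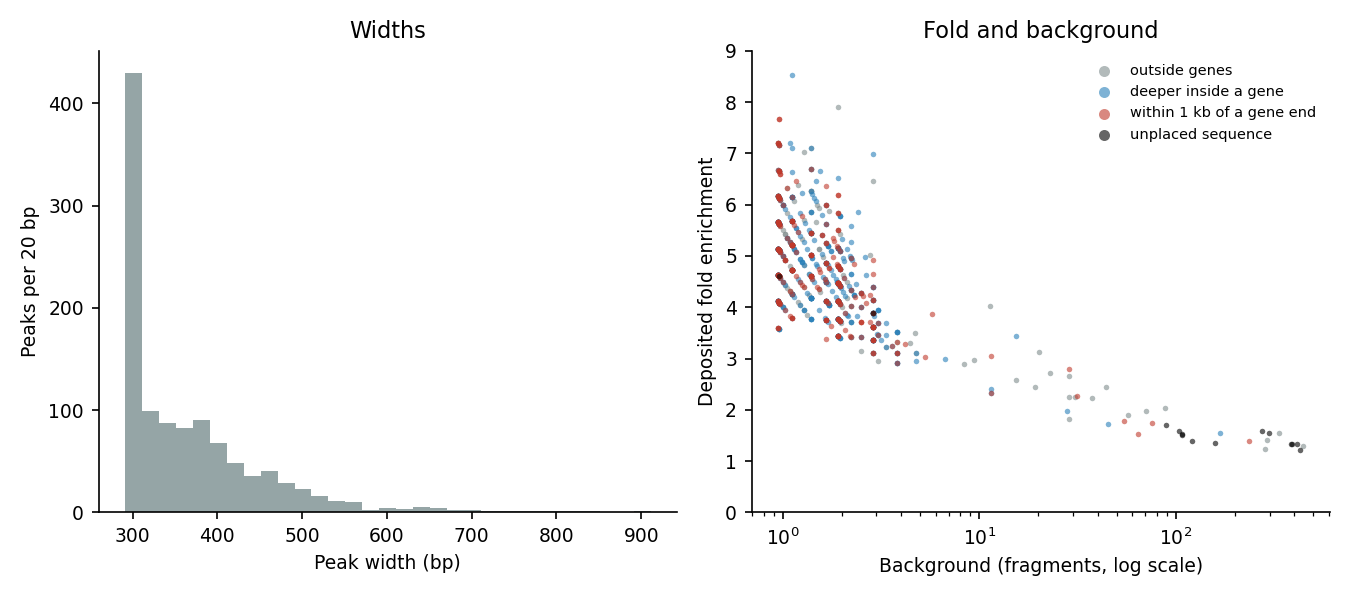
Left, number of peaks per 20 bp of width. Right, deposited fold against recovered background in fragments on a log scale, 1 point per peak, coloured by position. The first width bar holds the 303 peaks of 291 bp, and folds fall below 3 where the background passes 20 fragments in 35 of 36 peaks.

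Among 35 gene lists by function, 3 had an interval above the background share, each with 3 to 5 genes. The olfactory and vomeronasal receptors had one below it, with 0 genes. These intervals are not adjusted for the 35 lists, so some can miss the background by counting alone. The lower bounds of the 3 lists, 1.41% to 1.85%, lie close to the background of 1.24%. Of the 272 genes, 48 (17.6%) were in at least 1 of 35 lists, against 18.4% of all protein-coding genes, and the median fold over the 272 was 4.60. Chaperones had 5 of 89 genes (5.62%, interval 1.85 to 12.6). Besides Hsp90b1 and Dnajc10 these were Hspbap1 (4.87-fold), the mitochondrial Hsp70 gene Hspa9 (4.63) and Dnajc15 (4.60). Hspbap1 is named as a partner of a heat shock protein and not as a chaperone. Its peak lay 760 bp from an end of Hspbap1 and nearer, at 404 bp, to an end of the solute carrier gene Slc49a4. The share without Hspbap1 was not computed. Mitochondrial ribosomal proteins had 4 of 78 (5.13%, 1.41 to 12.6), namely Mrpl40 (5.21-fold), Mrps21 (5.00), Mrps35 (4.81) and Mrpl20 (4.09). The Mrpl40 peak lay nearer, at 78 bp, to an end of Hira, and the Mrps21 peak lay outside the gene, 988 bp from an end. At Mrpl20 the peak had 7 fragments and lay 922 bp from an end. The share without these genes was not computed.

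Hox genes, which set position along the body axis, had 3 of 39 (7.69%, interval 1.62 to 20.9). They were Hoxc13 (4.87-fold), which is needed for hair shaft formation, Hoxa11 (4.77) and Hoxd12 (3.94). The Hoxd12 peak had 7 fragments and a q-value above 0.01, and lay outside the gene, 740 bp from an end. The share without Hoxd12 was not computed. Hoxc13 was also the 1 of 18 hair follicle markers with a peak. Vesicle traffic genes had 5 of 198 (2.53%, 0.825 to 5.79), with Snx25, Vps29 (6.14-fold), Exoc8 (5.77), Rab1a (5.66) and Vps39 (4.81). Cell cycle genes had 2 of 48, the spindle checkpoint gene Mad2l1 (5.21-fold) and the ubiquitin-conjugating enzyme gene Cdc34.

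The intervals of the lists that follow include the background share. Zfp zinc finger genes had 8 of 397 (2.02%, interval 0.874 to 3.93) at 7 peaks, with a median of 3.75-fold. Solute carriers had 6 of 375 (1.60%, 0.589 to 3.45). RING, TRIM and F-box ubiquitin ligase families had 1 of 229 (0.437%, 0.0111 to 2.41), Fbxo45 (3.60-fold). DNA damage signalling and repair had 1 of 51, Bard1. That list does not hold Rad9b (6.14-fold, at the Vps29 peak), Sprtn (5.77, at the Exoc8 peak) or Wrnip1 (4.11), which also had a peak. Cytosolic ribosomal proteins had 2 of 86, Rps19 and Rpl27 (4.60-fold). Centrosome and cilium genes had 2 of 80, Cep350 and Cenpf (5.14-fold), in a list that does not hold Cdk5rap2, and splicing factors 2 of 82, Hnrnpll (5.07-fold) and Hnrnpul1 (4.12). Keratins had 1 of 53, Krt7 (3.36-fold, 12 fragments over 2.87), and histone genes 1 of 48, H2ac12 (5.14-fold). The list's name pattern left out H2bc12, at the same peak, and H1f5 (4.40-fold), which also had a peak.

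In 14 lists no gene had a peak, and the limits given for them are 3 counts over the number of genes, in place of the exact interval. Olfactory receptors had 0 of 1110, which allows a share of up to 0.270%, and vomeronasal receptors 0 of 355, up to 0.845%. These are families of sensory receptors in long tandem clusters, and their exact upper bounds, 0.332% and 1.03%, are also below the 1.24% of all protein-coding genes. Respiratory chain subunits had 0 of 109 (up to 2.75%) and apoptosis genes 0 of 30 (up to 10%). The apoptosis list does not hold Bax or Siva1 (4.84-fold, 13 fragments), which each had a peak. Collagens had 0 of 44 (up to 6.82%) and H3K4 methylation machinery 0 of 19 (up to 15.8%). For these lists, from respiratory chain to H3K4 methylation, the limit does not reach below the background. Markers of basal keratinocytes (0 of 11), differentiated keratinocytes (0 of 14), dermal fibroblasts (0 of 10) and immune, endothelial, melanocyte, fat and muscle cells (0 of 18) had none.

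**Figure D3:**
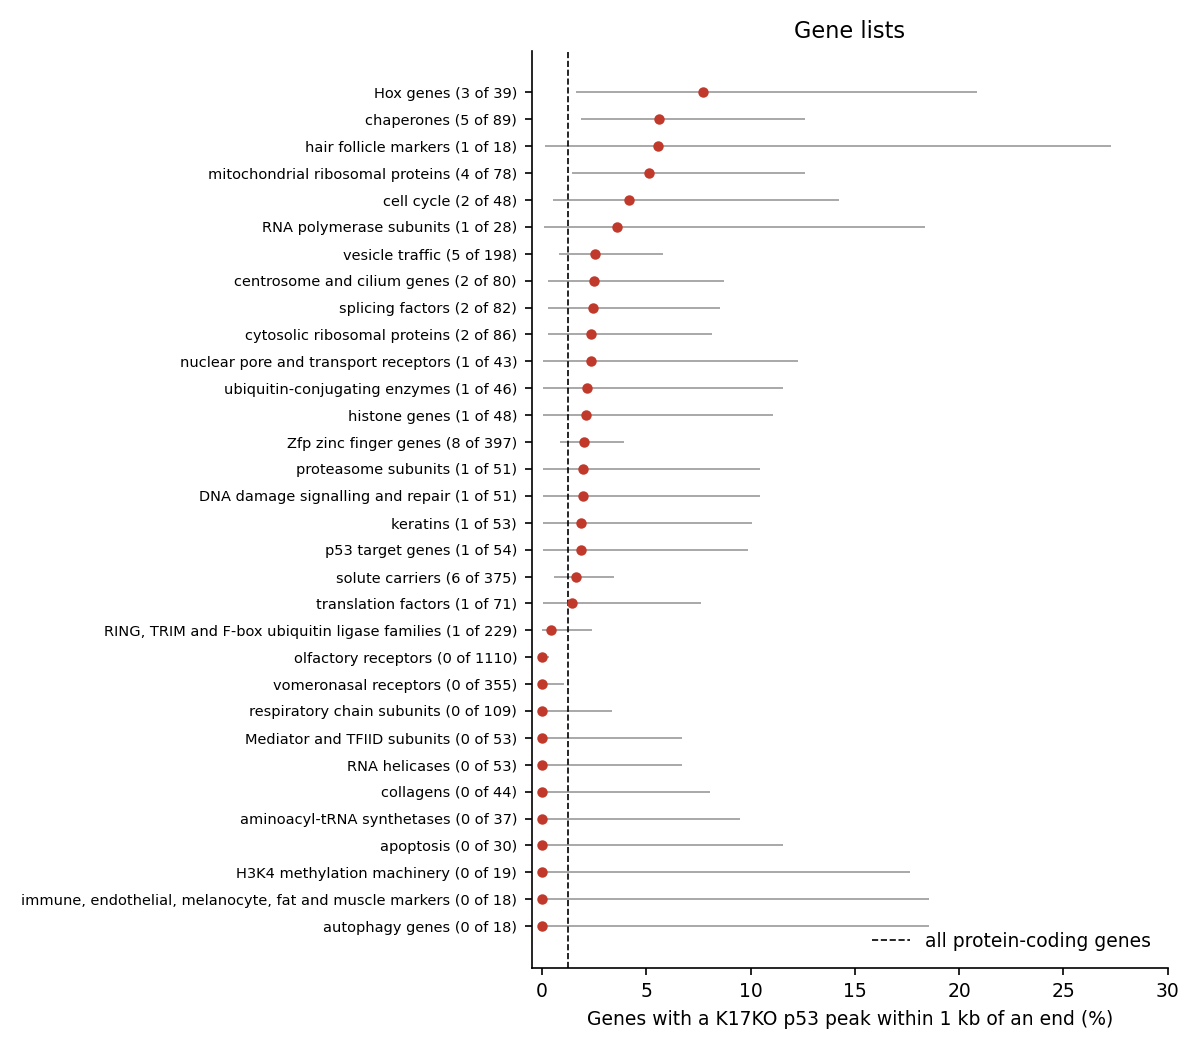
Share of the genes of each list with a K17KO p53 peak within 1 kb of an end, in percent, for lists of 18 genes or more. Points are shares with exact binomial 95% intervals, and the dashed line is the 1.24% of all protein-coding genes. The Hox, chaperone and mitochondrial ribosomal lists have intervals above the line, each with 3 to 5 genes. Intervals are not adjusted for the number of lists.

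Noncoding genes had fewer peaks for their number. In short genes the 1 kb windows of both ends overlap, so less sequence was searched, and gene length was not taken into account. Of 28056 noncoding genes, 108 had a peak within 1 kb of an end (0.385%), with a median of 4.63-fold against 4.60 for protein-coding genes. By kind these were 53 of 12727 lncRNA genes (0.416%, interval 0.312 to 0.544), 36 of 10609 pseudogenes (0.339%, 0.238 to 0.469) and 19 of 4198 small RNA genes (0.453%, 0.273 to 0.706). Of the 309 gene-end peaks, 67 were at noncoding genes only (21.7%, 17.2 to 26.7), 213 at protein-coding genes only and 29 at both. H3K4me3 overlapped 4 of the 67 (5.97%) and 42 of the 213 (19.7%).

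Snhg8, a host gene of small nucleolar RNAs, had a 7.16-fold peak with 13 fragments, 459 bp from an end on chromosome 3 from 123508608 to 123508983. The same peak lay within 1 kb of Snora24, the small nucleolar RNA hosted there, and of the pseudogene Gm9369. The pseudogene 4930431P19Rik had the same fold, at the peak of Tmem9b, and 2310075K07Rik shared the 6.69-fold peak of Prep. The pseudogenes Gm7701 (6.65-fold) and LOC108169009 (6.59), the lncRNA gene Gm32406 (6.32) and the snoRNA gene Gm25846 (6.14) had peaks with no protein-coding end nearby. Gm29886 shared the 6.18-fold peak of Adrm1, Gm15559 the 6.14-fold peak of Ep400, a chromatin remodeller, and Gm33355 the 5.68-fold peak of Commd3.

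A few genes for RNAs of the splicing and ribosome-making machinery had an end within 1 kb of a peak midpoint. Rnu3b2 (5.68-fold, 11 fragments) and Rnu3a (4.73-fold, 9 fragments) encode U3, which acts in ribosomal RNA processing. The Rnu3a peak lay 867 bp from Rnu3a and nearer, at 111 bp, to an end of the protein-coding gene Gtf3c6. Rnu12 (4.32-fold, 8 fragments) encodes U12 of the minor spliceosome, and its peak lay 957 bp away, inside the protein-coding gene Poldip3. Scarna2 (4.87-fold, 12 fragments) encodes a Cajal body RNA, and its end lay 59 bp from the midpoint. The tRNA genes n-TDgtc6, n-TLcag8 and n-TGtcc4 shared 1 peak of 3.05-fold with 37 fragments over 11.5. The microRNA genes Mir1901 (5.62-fold), Mir1964 (5.21), Mir7087 (4.22) and Mir124a-3 (3.70) had a peak 236 to 923 bp away, and the one at Mir124a-3 overlapped an H3K4me3 peak. Hoxa11os, the antisense transcript of Hoxa11, shared the 4.77-fold peak of Hoxa11, 102 bp from its end.

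By the 1 kb rule, the highest fold was 8.52 inside genes, 7.90 outside and 7.67 at gene ends. The medians hardly differed, at 4.60, 4.64 and 4.60. Inside genes the list was led by Epm2a, the gene for the glycogen phosphatase laforin, at 8.52-fold with 17 fragments over 1.11, 453 bp downstream of a start. Etv3 followed at 7.20-fold, Arid1b, a subunit of the SWI/SNF remodeller, at 7.16-fold and 195 bp from a start, and Fam83a at 7.11-fold. A 7.10-fold peak lay inside Dscaml1, with the lncRNA 4833428L15Rik as the nearest gene end. Of the 466 peaks inside genes, 420 were in a protein-coding gene (90.1%).

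Outside genes the highest was a chromosome X peak from 40365851 to 40366156, 7.90-fold with 22 fragments over 1.91, 195 kb from the pseudogene Gm17859. A 7.20-fold peak lay 4086 bp from the olfactory receptor pseudogene Olfr766-ps1 and another of 7.20-fold 4747 bp from the lncRNA gene Gm41014. Peaks of 7.16-fold lay 41.6 kb from Gm26163 and 77.5 kb from Gm22074, both pseudogenes. None of these 5 overlapped an H3K4me3 peak, and neither did any other of the 312 peaks outside genes.

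Peak widths began at a floor. The narrowest width was 291 bp, which 303 peaks had (27.5%), the median was 335 bp, 90% of peaks were at most 476 bp wide and the widest was 893 bp. In all, 82 peaks were over 500 bp. Over the 1101 peaks, which come from 1 list and share its depth, Spearman's rho of width was 0.11 with fragments and 0.00 with fold. Among peaks with a background of at most 3, the share at 291 bp was 42.8% at 6 to 8 fragments, 28.4% at 9 to 11, 25.3% at 12 to 14 and 13.3% at 15 or more. Their median widths were 330, 333, 327 and 371.5 bp. Gene-end shares were 27.4% at 291 bp, 27.8% from 292 to 350 bp, 28.9% from 351 to 450 bp and 28.1% above. H3K4me3 overlap was 4.62%, 5.11%, 7.69% and 7.50% in the same classes, and a wider peak has more bases to overlap. The widest peak, 893 bp and 3.25-fold, lay 125 bp from the lncRNA gene Gm32517 and within 1 kb of Otx1, a homeobox gene. Those that followed were near Gm12464 (847 bp), in Ak4 (813 bp), at Abtb2 (793 bp) and in Tbce (772 bp), of which Ak4 and Tbce overlapped an H3K4me3 peak.

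H3K4me3 overlap was higher where peaks had more fragments. Among the 1013 peaks with a background of at most 3, overlap with H3K4me3 was 2.63% at 6 to 8 fragments, 5.49% at 9 to 11 and 7.33% at 12 to 14. It was 15% at 15 or more, from 9 of 60 peaks. Those 9 include the 4 at Gm13067, Rps27l, Rps19 and Bax that are also in the other p53 list. No intervals were computed for these shares. The gene-end share in the same classes was 28.9%, 26.5%, 32.6% and 30%.

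Spacing was wide. Neighbouring midpoints on chromosomes 1 to 19 lay a median of 1.27 Mb apart (mean 2.19 Mb) over 1057 pairs, and 993 of the 1101 peaks (90.2%) had no neighbour within 50 kb. The longest gaps on chromosomes 1 to 19 were 22.6 Mb on chromosome 5, 16.6 Mb on chromosome 8 and 16.4 Mb on chromosome 10, and the longest in the whole list was 40.5 Mb, on chromosome X. At the other end, 31 pairs over the whole list lay within 10 kb. In 12 of these both backgrounds were at most 3 fragments, and in 19 at least 1 was higher.

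The closest pair was 653 bp apart on chromosome 12, at the neighbouring genes Rpl36al (4.60-fold) and Mgat2 (6.17-fold). A pair in Fam160b2 was 720 bp apart (4.80 and 3.36-fold) and a pair in Rimbp3 1097 bp apart (4.12 and 4.75-fold). The 2 remaining pairs of the closest 5 had high backgrounds, 930 bp apart on chromosome 6 and 1064 bp apart on unplaced sequence. Chains of 3 or more peaks, each within 50 kb of the next, numbered 5. The one with the lowest backgrounds was the 3 peaks over 62.6 kb of chromosome 7 that include those at the zinc finger genes Zfp768 (3.71-fold) and Zfp764 (3.11-fold), with 1.91 to 3.82 background fragments.

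**Figure D4:**
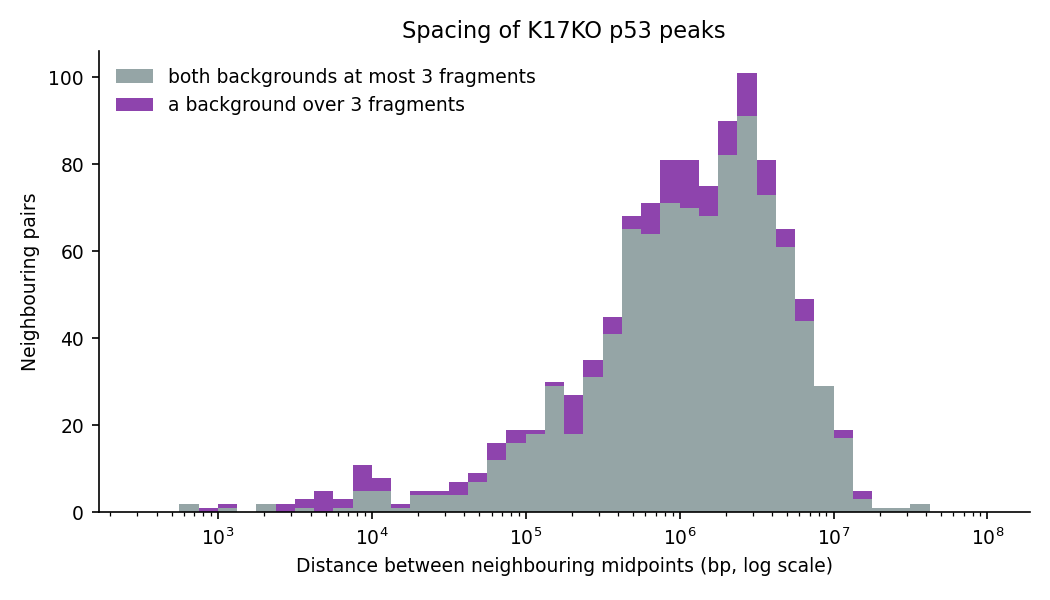
Distance between neighbouring K17KO p53 peak midpoints, on a log scale, for 1077 pairs. Grey pairs have both backgrounds at 3 fragments or fewer and purple pairs at least 1 above. Most pairs lie near 1 Mb or above, and 19 of the 31 pairs within 10 kb are purple.

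The other 4 chains held peaks of high background and low fold. The longest, 12 peaks over 94.5 kb of the unplaced sequence JH584304, had backgrounds of 88.9 to 430 fragments and folds of 1.22 to 1.703. On chromosome 6, 4 peaks from 47662109 to 47682389 and 6 from 47743929 to 47772449 had backgrounds of 11.4 to 44.9 and folds of 1.72 to 4.03. At the start of chromosome 9, 3 peaks from 3013995 to 3029859 had backgrounds of 291 to 445 and folds of 1.29 to 1.55. In all 36 peaks had a background over 20 fragments, 12 of them on unplaced sequence and 8 on chromosome 6. The H3K4me3 list and the other p53 list each have 2 peaks on JH584304.

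Chromosomes 1 to 19 held 1076 of the peaks (97.7%), at 0.437 per Mb of annotated span. Chromosome 17 was densest with 55 peaks at 0.580 per Mb (interval 0.437 to 0.755), then chromosome 9 with 72 at 0.578. Chromosome 8 was sparsest with 41 at 0.317 (0.228 to 0.430), then chromosome 3 with 52 at 0.325. With peaks of a q-value above 0.01 left out, chromosome 17 was still densest and chromosome 19 was sparsest, with a ratio of 2.32. In the whole list the ratio of chromosome 17 to chromosome 8 was 1.83 (interval 1.20 to 2.81), for a pair picked as the extremes. Peaks per Mb and genes per Mb had Pearson's r of 0.34 and Spearman's rho of 0.46 over these 19 chromosomes, which share 1 list and its depth. Per 1000 genes the range was 13.9 on chromosome 7 to 33.5 on chromosome 16.

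The gene-end share ran from 22.0% on chromosome 13 (9 of 41 peaks, interval 10.6 to 37.6) to 42.9% on chromosome 19 (12 of 28, 24.5 to 62.8), and the intervals overlap. Median folds per chromosome were 4.09 to 5.02 and median widths 310.5 to 361 bp. Chromosome X held 7 peaks at 0.0410 per Mb (0.0165 to 0.0845) and chromosome Y 4 at 0.0440 (0.0120 to 0.113), below every one of chromosomes 1 to 19. The labels do not give the sex of the mice, and its part in these densities was not tested.

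**Figure D5:**
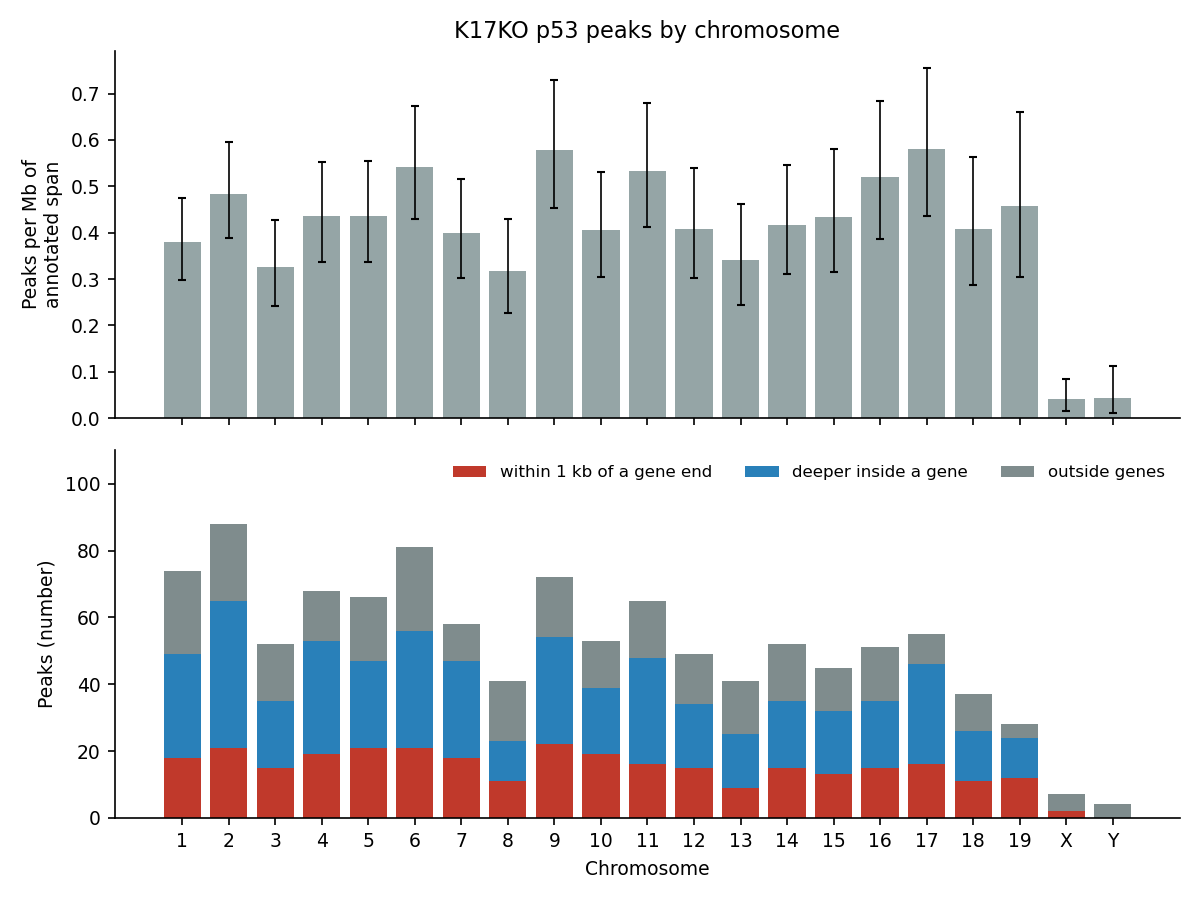
Top, K17KO p53 peaks per Mb of annotated span on each chromosome, with exact Poisson 95% intervals. Bottom, number of peaks by position. Chromosomes 17 and 9 have the highest bars, 8 and 3 the lowest of chromosomes 1 to 19, and X and Y lie under 0.1 per Mb.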

How the data were processed

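The authors deposited 3 peak lists in mm10 coordinates, each with 10 columns and no header. Per the submitters' processing notes, Bowtie2 2.2.5, SAMtools 1.7 and MACS2 2.1.2 were used, with no settings given. The deposited fold is a ratio of fragments to background, the deposited p- and q-values are on a −log10 scale and come from the peak caller, and the deposited score is 10 times the −log10 p without its decimals. All are the authors' values, used only to describe peaks within the list.

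Fragments and background were solved from fold and −log10 p with a Poisson tail, within 0.001. Gene positions came from RefSeq GRCm38.p6 (49943 genes), which shares coordinates with mm10 and gives no strand; starts came from 32851 promoter windows on 20 chromosomes, chromosome 18 left out. Shared peaks overlap by at least 1 bp. Python 3.11.15, pandas 2.3.3, numpy 2.4.6 and scipy 1.17.1 were used. On simulated data all 200 planted genes and 500 fragment numbers were recovered. The genes were planted by the same 1 kb rule that finds them, so this part checks the code only. The simulated fragments and backgrounds did not reach the highest values of the list.

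The named genes are the 20 highest-fold peaks at protein-coding ends, 12 at noncoding ends, 5 inside and 5 outside genes, up to 4 per gene list, the 5 widest and 5 closest, and Bax, Rps27l, Cdkn1a, Mdm2, Trp53 and Krt17. The remaining names, such as the fifth gene of a list, were chosen after their values were seen. The members and the 35 gene lists were chosen with earlier results of these data known. Sequencing depth per sample is unknown, since the lists hold no library totals.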

Additional observations from a re-analysis of the deposited data

How the results depend on the processing

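Of 39 alternatives to 12 results, 27 stayed within the main value's interval or 1.5 times its count, among them the ratio of the densest to the sparsest of chromosomes 1 to 19, though the sparsest changed from 8 to 19 without peaks of a q-value above 0.01. The gene-end share of 28.1% was 20.2% with a 500 bp window, 48.9% with 5 kb and 22.0% with protein-coding genes only. The noncoding-only share of gene-end peaks fell from 21.7% to 5.65% without genes named Gm and a number. Protein-coding genes with a peak numbered 519 at 5 kb and 137 for the upper 50% of the list by fold, and noncoding genes 245 and 58. Pairs of close neighbours were 63 within 50 kb and 19 when peaks with a q-value above 0.01 were left out, in place of 31. The share of peaks with a low background was 93.7% without those peaks. GGGCGG was in 69.2% of all 117 windows with a peak and in 59.4% of the 32 that hold a summit; for protein-coding genes the shares were 72% of 100 and 63.0% of 27. The downstream share of summits stayed between 75.6% and 80% under 6 alternatives added after seeing the data. No paired analysis was possible because the list names no library or replicate, and for the same reason no replicate could be left out. A median of 11 fragments per peak limits every fold, and the list cannot show which peaks differ between T0 and 6 h.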
